A study of Scophthalmus maximus with 8 samples.

Results

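A set of 149 turbot genes was highest after metamorphosis, at 37 days post hatching (dph). The mean there was 4 to under 8 times the largest of the earlier stage means, and the ratio to a lower earlier stage could be larger. The genes were selected by their own counts in these libraries, out of 21263 genes in each table. Counts were divided by median-of-ratios size factors, a gene needed a mean of at least 100 normalized counts at 37 dph, and no stage mean could reach 20000. The excess at 37 dph is therefore the rule itself, and edgeR counts for it are given only as a description. The comparisons read as tests are those among the 3 earlier stages, since the rule used only the largest of their means and treated them alike. This covers the direction of a change among them, not the number of calls. The rule favours genes that change with stage, and all genes tested were not chosen in that way. A larger share called in the set than over all genes is therefore favoured by the rule.

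In flatfish, thyroid hormone drives a metamorphosis after which both eyes lie on the same side of the head and the animal rests on the sea floor. Skin, skull, gut, muscle and blood pass from larval to juvenile forms. The genes collected here had their highest stage mean in the juvenile, with each earlier mean at most 25% of it, and could rise before that stage.

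RNA came from 8 turbot, *Scophthalmus maximus*, with 2 biological replicates at each of 4 stages. The phylotypic stage at 3 days post fertilization (dpf) was sampled as whole animals, and fish of 15 dph (pre-metamorphic), 23 dph (climax) and 37 dph (post-metamorphic) without the hindmost section of the body behind the cloaca. The deposited file of 3 dpf replicate 2 is named for days post hatching, against its label, and the label was followed, so values of 3 dpf rest on it. No treatment, genotype or strain was named for any stage. Changes from 3 dpf to a later stage therefore cannot be told apart from whole animals against partial bodies, and in whole-body RNA a change in the number of cells of a type cannot be told apart from a change in RNA per cell. The count tables name genes by Ensembl identifier alone, and 0 of these identifiers matched the 26628 entries of the gene table at hand, so gene functions, marker genes and sequences were not analysed here.

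Counts on genes ranged from 19077018 to 24633023 per library. The size factor of 37 dph replicate 1 was 0.668, the lowest of the 8, and the 20 most abundant genes held 24.9% of its gene counts and 20.7% in 37 dph replicate 2, against 10.1% to 19.1% in the earlier libraries. Scaling by the gene total in place of size factors lowered the ratio at 37 dph, with a median of 3.98 and a range of 2.64 to 6.44 over the 149 genes, so that 75 of them stood under 4 times and all 149 stood at 2 times or more. Normalized counts are not divided by gene length, so levels are compared between libraries and not between genes.

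At 37 dph the stage means of the 149 genes ranged from 109 to 14060 normalized counts, with a median of 708. Of these genes, 27 had a mean of 100 to under 200, 59 of 200 to under 1000, 46 of 1000 to under 5000 and 17 of 5000 or more. The ratio of 37 dph to the highest earlier stage had a median of 4.89. It was 4 to under 5 in 79 genes, 5 to under 6 in 32, 6 to under 7 in 23 and 7 to under 8 in 15, so the set was densest near its lower limit. The nearest genes outside the limits had ratios of 3.99 and 8.04, and the outermost members 4.004 and 7.83. The lowest 37 dph mean in the set was 109, and the nearest gene below the minimum of 100 had 95.8. A further 88 genes had a ratio in this range with a 37 dph mean under 100, and 6 had a stage mean of 20000 or more.

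The level of the set before 37 dph differed by stage. The median gene stood at 16.0 and 11.7 normalized counts in replicates 1 and 2 of 3 dpf and at 64.0 and 54.4 in those of 15 dph. It stood at 122.1 and 121.6 in the libraries of climax and at 730 and 552 in those of 37 dph. In both replicates of each stage the median was above that of the stage before. As a share of all gene counts the embryos held 0.0621% ± 0.0062 (SD, n = 2) in the 149 genes and the pre-metamorphic larvae 0.165% ± 0.0041. The share was 0.249% ± 0.015 at climax and 1.05% ± 0.20 after metamorphosis. The 10 genes with the most counts at 37 dph made up 38.3% of the set's normalized counts there.

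**Figure D1:**
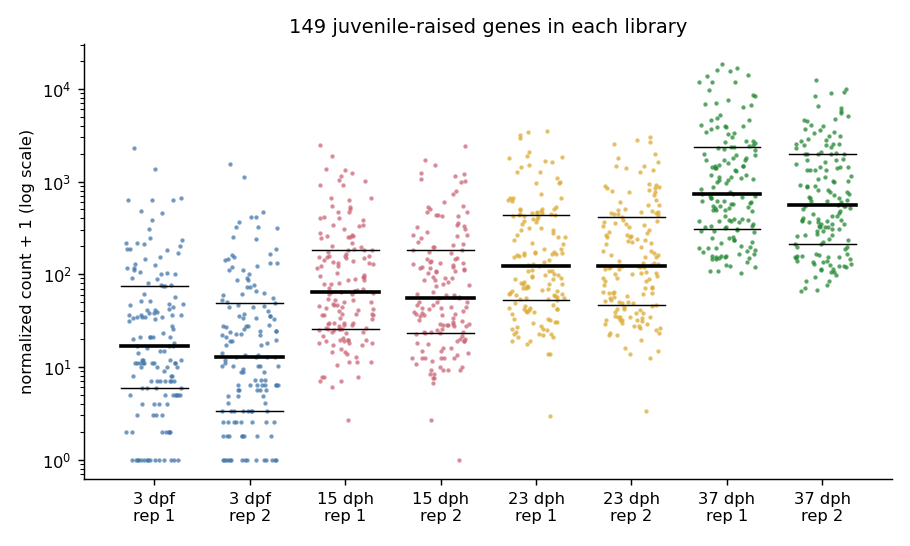
Normalized count + 1 (log scale) of each of the 149 genes in each of the 8 libraries; thick lines are medians and thin lines quartiles over genes. The medians are 16.0 and 11.7 at 3 dpf and 730 and 552 at 37 dph before the 1 is added, and the genes on the lowest line at 3 dpf had a count of 0.

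Expressed relative to the 37 dph mean of the same gene, the median was 2.53% at 3 dpf (quartiles 0.438% and 7.52%), 10.5% at 15 dph (quartiles 6.60% and 14.7%) and 19.5% at 23 dph (quartiles 15.4% and 22.4%). The rule caps each of these values at 25%. The spread over genes was widest in proportion at 3 dpf, where part of the set was at the limit of detection. At 3 dpf 12 genes had a count of 0 in both libraries and 26 had 3 counts or fewer in both, the limit that a count of 0 allows, while 83 had at least 10 counts in both. At 15 dph 137 genes and at 23 dph 148 genes had at least 10 counts in both libraries.

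The highest earlier stage was 23 dph in 127 genes (85.2%), 3 dpf in 11 and 15 dph in 11. Among the 13744 genes with a 37 dph mean of at least 100 and no stage mean of 20000 or more, the shares were 32.5% for 23 dph, 47.7% for 3 dpf and 19.8% for 15 dph. In 109 of the 149 genes the means rose in the order 3 dpf, 15 dph and 23 dph. The earlier mean was lowest at 3 dpf in 120 genes, at 15 dph in 28 and at 23 dph in 1. These counts of stage means carry no test.

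Of the 127 genes highest at 23 dph among the earlier stages, 106 had both 23 dph libraries above the other 4 earlier libraries. That is 71.1% of the 149, against 18.8% of all genes tested. Their medians were 1.94% of the 37 dph mean at 3 dpf, 10.1% at 15 dph and 20.5% at 23 dph. The 11 genes highest at 3 dpf had another course, with medians of 18.7% at 3 dpf, 5.01% at 15 dph and 13.8% at 23 dph. Both 3 dpf libraries stood above the other 4 earlier libraries in 6 of these 11, or 4.03% of the 149, against 35.1% of all genes tested. The 11 genes highest at 15 dph had medians of 4.61%, 21.1% and 17.5%, and in 4 of them both 15 dph libraries were above the other 4 earlier libraries, or 2.68% of the 149, against 13.1% of all genes tested. For the remaining 7 genes, libraries of 15 dph overlapped with those of another earlier stage.

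**Figure D2:**
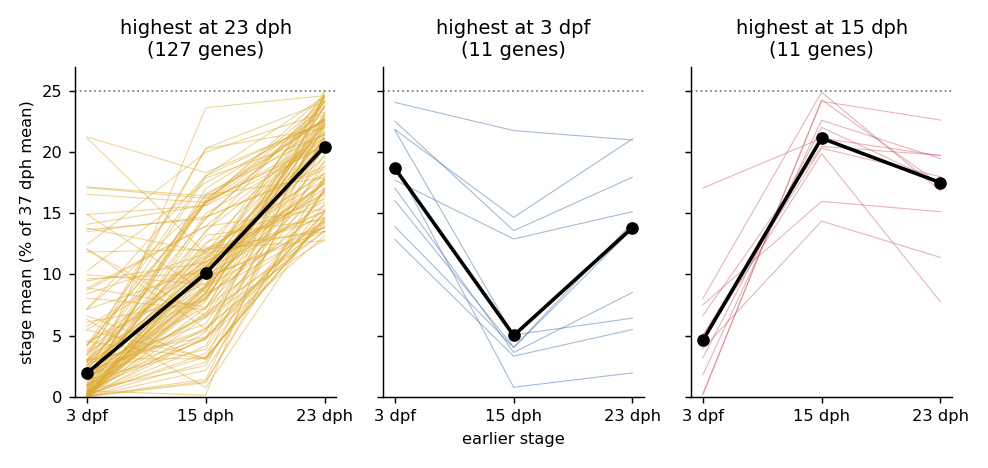
Stage mean as a percentage of the 37 dph mean of the same gene at 3 dpf, 15 dph and 23 dph, for genes highest at 23 dph (127), 3 dpf (11) or 15 dph (11) among the earlier stages. Thin lines are genes, black lines medians, and the dotted line is the 25% cap set by the rule; the black line for the 3 dpf group goes from 18.7% to 5.01% and back to 13.8%.

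The step from 15 dph to 23 dph, from the pre-metamorphic stage to climax, was tested with edgeR's quasi-likelihood test over all 18987 genes that passed the filter on low counts. A call needed both a change of at least 1 on the log2 scale, in either direction, and a p-value under 0.05 after Benjamini-Hochberg adjustment over all genes. All 149 genes passed the filter, as the minimum at 37 dph made likely, so passing says nothing about the earlier stages. At 23 dph 33 of the 149 genes (22.1%) were called higher, against 1.48% of all genes tested. The rule favours an excess of calls, though not their direction. Called lower were 0 genes of the set, against 0.2% of all genes, a share so low that 0 among 149 says little by itself. In edgeR 0 genes of the set reached an unadjusted p under 0.05 in that direction. Among the 13744 genes with a 37 dph mean of at least 100 and no stage mean of 20000 or more, 817 did. DESeq2 and limma's voom also called 0 lower.

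The log2 fold change from 15 to 23 dph had a median of 0.86 over the set (quartiles 0.40 and 1.42) and of 0.00 over all genes tested. It was above 0 in 137 genes and below 0 in 12. Both 23 dph libraries were above both 15 dph libraries in 116 genes (33.2% of all genes tested), both were below in 4 (30.8% of all genes tested), and the stages overlapped in 29. A further 31 genes had a log2 value of at least 1, and 1 gene had -1.37, without passing the adjusted p-value. In simulated libraries of the real depths, every stage had the fitted 15 dph means, and genes with low mean counts were left out of those changed. Of 50 genes changed at each fold between these stages, 42% were called at 2-fold, 100% at 3-fold and 98% at 4-fold. Among the genes left unchanged 11 were also called. At 2-fold the median estimate was 1.01 on the log2 scale, so the cutoff of 1 by itself leaves out many such genes. The misses at 2-fold therefore do not measure the effect of depth or of the number of replicates. The median coefficient of variation between replicates in edgeR was 19.3% in the set and 15.2% over all genes tested, so fewer may be called in the set.

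**Figure D3:**
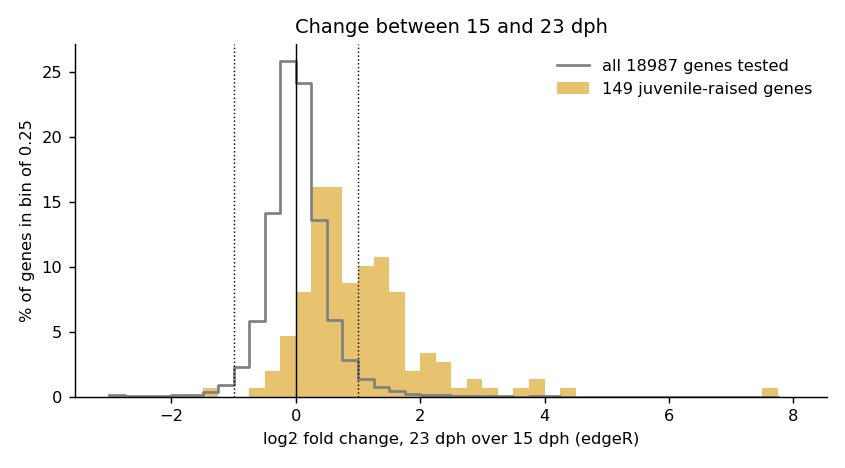
Distribution of edgeR's log2 fold change from 15 to 23 dph, as the percentage of genes in bins of 0.25, for the 149 genes (filled) and all 18987 genes tested (line). Dotted lines mark log2 values of 1 and -1; the filled bars are centred above 0, with a median of 0.86 against 0.00 for all genes.

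The 33 called genes rose by log2 fold changes of 1.02 to 7.52 with a median of 1.80 and a median standard error of 0.30. They went from a median of 81.7 normalized counts at 15 dph to 329 at 23 dph and 1707 at 37 dph. The other 116 genes went from a median of 55.5 to 85.3 and then 509, with a median log2 fold change of 0.61 from 15 to 23 dph. Calls were made in 0 of the 27 genes with a 37 dph mean under 200, in 11 of 59 between 200 and 1000, in 16 of 46 between 1000 and 5000 and in 6 of 17 above that. The median log2 fold changes in these 4 classes were 0.87, 0.89, 0.79 and 0.71, so the classes differed more in calls than in size of change.

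The number of calls rested on the few libraries and on the scaling. Settings that lowered it follow, and those that raised it are given further below. Leaving out 15 dph replicate 1 or 2 left 12 or 8 calls, and leaving out 23 dph replicate 1 or 2 left 15 or 19, of which 11, 8, 14 and 19 were among the 33. Scaling by gene totals gave 19 calls, all among the 33, and moved the median change of all genes to -0.31 and that of the set to 0.55 on the log2 scale. In each of these settings the share of the set called stayed above the share of all genes called, an excess that the rule favours.

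ENSSMAG00000011856 had the largest rise among the called genes. It had 5.97 and 11.5 normalized counts in replicates 1 and 2 of 15 dph, 612 and 2682 at 23 dph, and 7028 and 6204 at 37 dph. At 3 dpf it had 37.9 and 24.9. The stages from 15 dph on did not overlap, although the 23 dph replicates lay far apart, and both 3 dpf libraries stood above both 15 dph libraries. The log2 fold change from 15 to 23 dph was 7.52 (standard error 0.74; edgeR adjusted p = 0.00080), and the gene was called in each alternative, including each library left out.

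ENSSMAG00000016631 had the next largest rise. It had 123.7 and 89.6 normalized counts in replicates 1 and 2 of 3 dpf, 13.7 and 11.5 at 15 dph, 173.7 and 340 at 23 dph, and 2644 and 735 at 37 dph. The libraries were lowest at 15 dph, and no stage overlapped with another. The log2 fold change from 3 dpf to 15 dph was -3.03 (standard error 0.70, adjusted p = 0.0036 in edgeR's test) and that from 15 to 23 dph was 4.32 (standard error 0.68, adjusted p = 0.010 in the same test). The second of these calls was lost without 15 dph replicate 1 or without 15 dph replicate 2. These comparisons share the 15 dph libraries.

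From 3 dpf to 15 dph, from the embryo to the pre-metamorphic larva, 100 of the 149 genes (67.1%) were called higher at 15 dph, against 24.4% of all genes tested. Called lower were 9 (6.04%), against 14.3% of all genes. Without 3 dpf replicate 2 the calls were 86 higher and 11 lower. The median log2 fold change over the set was 2.17, against 0.00 over all genes, and it was 1.95 as a ratio of stage means with each library under 3 counts held at 3. The rises called ranged from 1.05 to 8.96 on the log2 scale with a median of 3.48. In the 26 genes with 3 counts or fewer in both 3 dpf libraries, the size of such a value depends on how edgeR treats counts near 0. Both 15 dph libraries were above both 3 dpf libraries in 108 of the 149 genes, against 40.5% of all genes tested. They were below both 3 dpf libraries in 18 of the 149, against 40.6% of all genes tested.

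The 9 genes called lower at 15 dph had log2 fold changes of -4.42 to -1.07. Their stage means had medians of 82.1 normalized counts in the embryo, 19.2 and 68.1 at 15 and 23 dph, and 1115 at 37 dph. ENSSMAG00000020033, named for its fall after its values were seen, had 19.96 and 21.8 normalized counts in replicates 1 and 2 of 3 dpf. It had 1.71 and 0 at 15 dph, 1.98 and 2.32 at 23 dph, and 152.6 and 67.0 at 37 dph. Both libraries of 15 dph and of 23 dph were at 2 counts or fewer, so the gene was at or under the limit of detection through both larval stages. With each larval library set at 3 counts, its 3 dpf mean was 8.30-fold the 15 dph level. Its 37 dph mean was 34.0-fold the 23 dph level. These are not lower limits, since a count of 2 allows a level above 3 counts and the 37 dph replicates differed more than 2-fold. The 3 dpf excess over 15 dph was called in edgeR's test (adjusted p = 0.0012).

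From 3 dpf to 23 dph 113 genes (75.8%) were called higher, against 25% of all genes tested, and 3 were called lower, against 14.9%. Without 3 dpf replicate 2 the calls were 106 and 4. The median log2 fold change was 2.92 over the set, against -0.02 over all genes. Both 23 dph libraries were above both 3 dpf libraries in 131 genes of the set, against 40.4% of all genes tested. They were below both 3 dpf libraries in 6 genes of the set, against 40% of all genes tested. The 3 comparisons among the earlier stages share libraries in pairs, so their counts are set side by side and are not independent of each other. In each of them the rule favours more calls in the set than over all genes.

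At 37 dph 147 genes of the set were called higher than at 23 dph, with 7.67% of all genes called in that direction. Called higher than at 15 dph were all 149, against 13.4% of all genes tested, and higher than at 3 dpf all 149, against 27.8%. The rule used these contrasts, and nothing is read from the counts. Both 37 dph libraries stood above all 6 earlier libraries in 148 of the 149 genes (99.3%), against 20.5% of all genes tested, which the rule likewise favours.

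The 2 replicates of 37 dph were not alike for these genes. In replicate 1 115 of the 149 genes (77.2%) were higher than in replicate 2, with a median log2 ratio (normalized count + 1) of 0.50 and quartiles of 0.06 and 0.85. Among the 13744 genes with a 37 dph mean of at least 100 and no stage mean of 20000 or more, 54.7% were higher in replicate 1 and the median was 0.04. The rule used the mean of the replicates and not their ratio, but a mean can reach the limit through 1 high library. Genes with replicates far apart are thus favoured by the rule, and the 13744 genes were not selected in this way. With 1 library against 1 the difference has no test. Scaling by gene totals lowered the median of the set to 0.24 and that of the 13744 genes to -0.23, with 98 of the 149 higher in replicate 1, since a change of scaling moves each gene by about the same amount. At 3 dpf 106 genes of the set (71.1%, median log2 ratio 0.33) were higher in replicate 1, against 52.7% of the 13744 genes. At 15 dph they were 96 (64.4%, median 0.16) against 52.6%, and at 23 dph 80 (53.7%, median 0.03) against 50.3%.

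Replicates differed more than 2-fold at 37 dph in 20.8% of the set, 28 genes being higher in replicate 1 and 3 in replicate 2, and in 2.699% of the 13744 genes. At 3 dpf, where counts were low, the share was 20.1% of the set and 3.86% of the 13744 genes. It was 6.71% and 0.415% at 15 dph, and 3.36% and 0.437% at 23 dph. A high share in the set at 37 dph is favoured by the rule. Set against the highest earlier mean, replicate 1 alone gave a median ratio of 5.74 and replicate 2 alone 4.26. Replicate 1 was at 4 times or more in 142 genes, replicate 2 in 88, and both in 81. At 2 times or more were 149 genes in replicate 1 and 147 in replicate 2. The rule set the mean of the 2 ratios at 4 or more, so at least 1 library of each gene had to reach 4. These counts carry no test.

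**Figure D4:**
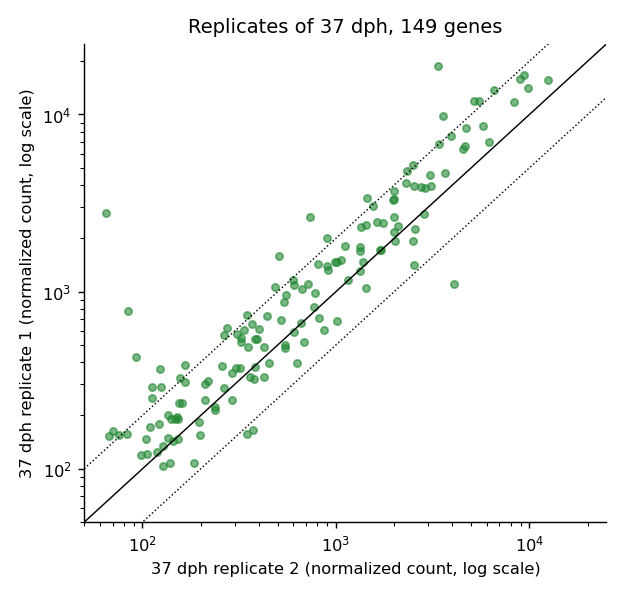
Normalized counts of the 149 genes in 37 dph replicate 1 against replicate 2 (both axes log scale); the solid line marks equal counts and dotted lines a 2-fold difference. Of the 149 points 115 lie above the solid line, 28 lie above the upper dotted line and 3 below the lower one.

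ENSSMAG00000022859, named after its values were seen, was the 1 gene in which the 37 dph libraries were not both above all earlier ones. It had 2763 normalized counts in replicate 1 of 37 dph and 65.0 in replicate 2, a log2 ratio of 5.39. Earlier it had 33.9 and 32.7 in replicates 1 and 2 of 3 dpf, 133.1 and 167.3 at 15 dph, and 279 and 214 at 23 dph. The earlier libraries rose by stage, and 37 dph replicate 2 lay below both 15 dph libraries, so its place in the set rested on 1 library.

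**Figure D5:**
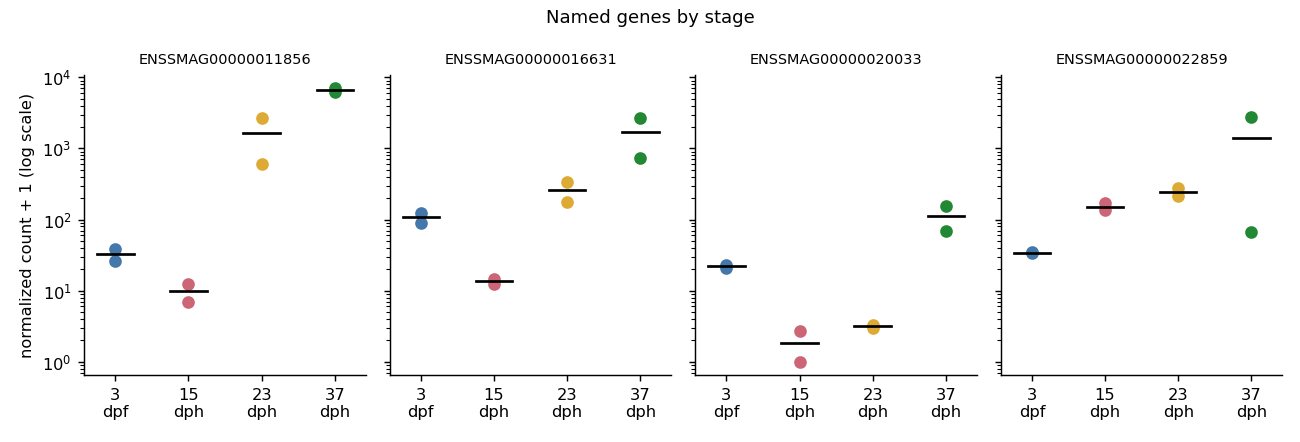
Normalized count + 1 (log scale) by stage of the 4 named genes; points are the 2 libraries of each stage and bars their mean. The first 2 genes are lowest at 15 dph, the third is at 2 counts or fewer at 15 and 23 dph, and the fourth has 2763 and 65.0 normalized counts in the 37 dph replicates.

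The rule was also applied to 1 library per stage and the genes read in the other libraries. On the replicate 1 libraries it found 161 genes, of which 107 were among the 149, and their ratio had a median of 5.16 there and of 3.50 in the replicate 2 libraries. In those other libraries 62 of the 161 were at 4 times or more and 148 at 2 times or more. On the replicate 2 libraries it found 124 genes, 79 of them among the 149, with a median ratio of 4.99 there and of 4.97 in the replicate 1 libraries, where 83 were at 4 times or more and 118 at 2 times or more. Most genes chosen on one library per stage were at least 2-fold higher at 37 dph in the other, while fewer of them reached the 4-fold limit. The share of all genes at these ratios was not computed, so the counts are a description only. Overlap with the 149 is favoured by construction, since the 149 were chosen on means of the same libraries.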

How the data were processed

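The authors removed adapters, mapped reads to ASM1334776v1 with STAR and used HTSeq-count to count reads on genes. The deposited values are raw counts, 1 table per library, with replicates not pooled. The strand setting of the counting is not given in the sources used here, so how reads were assigned where genes overlap is not known. Near-identical copies may lose reads to the entry for alignments that are not unique. The 5 summary entries of each table were left out, and those for aligned reads (no feature, ambiguous, not unique) made up 23.5% to 25.9% of all aligned entries. Counts per library had a median of 21101789. Precision also depends on the spread between replicates, and the limit of 3 counts covers counting error only.

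The genes and tests were chosen with earlier results of these data known. Median-of-ratios size factors were used for the rule. Tests were run in R 4.3.3 with edgeR 4.0.16 and limma 3.58.1, using filterByExpr, TMM, 1 mean per stage and 4 residual degrees of freedom over 8 libraries. A standard error is the log2 fold change divided by the square root of F. The procedure was tested on simulated data. DESeq2 1.42.0 was an alternative, as were other scalings, filters, weights, a replicate block and each library left out. Genes named are those called between 15 and 23 dph without overlap of replicates and with the largest changes, at most 2 in each direction, and 0 fell. Gene lists were not run for want of names.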

Additional observations from a re-analysis of the deposited data

How the results depend on the processing

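Of 159 values recomputed under alternatives, 142 stayed within 1.5 times the count or 1 SD and 17 did not. For the median log2 ratio of the 37 dph replicates the SD was taken over the 149 genes. It was 0.77, larger than the median of 0.50 itself. The fall of that median to 0.24 with gene totals was thus among the 142, which says little about its stability. Counts of 0 that stayed at 0 were among the 142. Genes called higher at 23 than at 15 dph numbered 33. They were 48 in DESeq2's Wald test, 60 with only the 4 libraries compared and 62 in limma's voom when each stage had a weight of its own. With gene totals only, a setting chosen after seeing the data, they were 19. Scaling to the median gene total left 85 genes meeting the rule, 72 of them shared with the 149, with 70 highest at 23 dph and 5 at 3 dpf among the earlier stages. Without genes with a stage mean of 20000 or more in the denominator, the share of gene counts from the earliest stage to the last was 0.0914%, 0.260%, 0.451% and 2.16%, a change that the smaller denominator gives by construction. The cause of the other changes was not tested.

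With each library left out in turn, 109 to 178 genes met the rule. The 109 were found without 37 dph replicate 1, 82 of them shared with the 149, and the 178 without 37 dph replicate 2, 120 of them shared. Genes highest at 3 dpf among the earlier stages numbered 7 to 13 (7 without 3 dpf replicate 1), those highest at 15 dph 6 to 16 (6 without 37 dph replicate 1) and those highest at 23 dph 95 to 149. Genes called higher from 15 to 23 dph numbered 8 to 43 and called lower 0 in each case. From 3 dpf to 15 dph 86 to 100 were called higher and 7 to 11 lower, and from 3 dpf to 23 dph 106 to 115 higher and 1 to 4 lower (1 without 3 dpf replicate 1). Of the 33 genes called from 15 to 23 dph, 7 were called in every setting. When a library of a compared stage is left out, the lone one is assumed to vary like the other stages.

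Replicate numbers were not used to pair libraries in the main fit, and the correlations given here cannot settle whether a pairing existed. Across genes the correlation of the replicate differences was 0.01 between 15 and 23 dph and ranged from -0.14 to 0.23 over the 6 pairs of stages. The fit with a replicate block called 40 genes higher from 15 to 23 dph, and from 3 dpf 100 at 15 dph and 115 at 23 dph. The pairing crossed at 3 dpf, added after seeing the correlation of -0.14 with 23 dph, also gave 115. Under upper-quartile normalization the genes tested had a median log2 change of 0.13 from 3 dpf to 15 dph, and 102 genes were then called higher. With 2 libraries per stage, no test for outlying libraries could be made.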

Other observations

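The difference between the 37 dph replicates was also measured in the genes raised by other amounts under the same minimum level. Of the 715 genes at 2 to under 4 times the highest earlier mean, 73.4% were higher in replicate 1, with a median log2 ratio of 0.30, and of the 53 genes at 8 times or more 92.5% were, with a median of 0.64. From 15 to 23 dph edgeR called 8.25% of the 715 genes and 30.2% of the 53 genes higher, beside 22.1% of the 149. In both groups 0 genes reached an unadjusted p under 0.05 for a fall. From 3 dpf to 15 dph 59.6% and 47.2% were called higher, beside 67.1%. From 3 dpf to 23 dph 68.3% and 75.5% were, beside 75.8%. The highest earlier stage was 23 dph in 81.1% and 90.6%, beside 85.2%, so these traits were not particular to the 149. The difference between these groups of genes was not tested. Reads aligned to more than 1 place were 6.999% and 6.61% of aligned entries in replicates 1 and 2 of 37 dph, above the 2.52% to 5.42% of the earlier libraries, and the part of this share in these values was not tested.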
